A study of Homo sapiens with 24 samples.

Results

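SNAI1, SNAI2, TWIST1, TWIST2, ZEB1 and ZEB2 are the 6 genes whose products are known as the core transcription factors of the epithelial-mesenchymal transition (EMT). They were chosen by name among 25029 genes with at least 1 probe set naming them alone, and all 6 were among the 17329 genes bright enough to be tested. The 24 arrays come from human lines engineered with an inducible, HA-tagged fusion of YWHAE, which encodes the 14-3-3 epsilon adaptor, with NUTM2. The study title ties this fusion to altered signalling and migration in clear cell sarcoma of the kidney (CCSK). BJ-hTERT is a skin fibroblast line immortalised with telomerase, and HEK293 is an embryonic kidney line. Each line was given doxycycline, which switches the fusion on, for 24 or 72 h, or the water vehicle (mock) for the same times, in 3 arrays per group. Mock cells carry the same inducible fusion gene as doxycycline cells, and whether it is silent without doxycycline was not tested here. No arrays of doxycycline-treated cells lacking the fusion were analysed here, so the effects of drug and fusion cannot be told apart. The sources used here do not say whether each line is a clone or a pool, or which promoter drives the fusion.

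EMT is the programme in which epithelial cells lose their junctions and gain the shape, matrix and motility of mesenchymal cells. The Snail proteins (SNAI1 and SNAI2) and the ZEB proteins (ZEB1 and ZEB2) are zinc-finger repressors that bind E-box sequences in promoters of junction genes such as CDH1, the gene for E-cadherin. The TWIST proteins are basic helix-loop-helix (bHLH) factors that bind DNA as dimers with E proteins. Fibroblasts are mesenchymal cells and many express these factors without any induction.

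All 24 arrays had usable values, and their median probe set values spanned 0.137 log2. NUTM2B, one of the paralogs that make up the fusion partner, averaged 6.16 and 6.00 log2 in BJ-hTERT with doxycycline at 24 and 72 h, and 4.27 and 4.05 with mock. In HEK293 it averaged 6.06 and 5.76 with doxycycline, and 3.89 and 3.43 with mock, and every doxycycline array was above every mock array in each comparison. Fibroblast markers averaged 7.86 to 8.59 log2 on single BJ-hTERT arrays and 3.04 to 3.32 on HEK293 arrays, with all 10 markers above the filter value in every BJ-hTERT group. The 5 HEK293 markers that could be measured averaged 3.59 to 4.02 on BJ-hTERT arrays and 6.04 to 6.53 on HEK293 arrays. Of these, 3 had means above the filter value in every BJ-hTERT group. KRT18 did not separate the lines, at 7.10 to 7.97 log2 on BJ-hTERT arrays and 6.80 to 7.85 on HEK293 arrays. NEFM overlapped, at 1.80 to 2.63 on BJ-hTERT arrays and 2.52 to 4.37 on HEK293 arrays. INA, PAX2 and LIN28B were higher on every HEK293 array than on any BJ-hTERT array. Mean levels of the keratinocyte, leukocyte, endothelial and melanocyte lists were at or below 2.72 log2 on every array. Single members were higher. KRT10, of the keratinocyte list, read 3.38 to 4.27 on BJ-hTERT arrays and 3.45 to 4.44 on HEK293 arrays. CD79A, of the leukocyte list, read 3.13 to 4.18 and 3.19 to 4.04, and some others passed the filter value on some arrays. The titles of 3 arrays spell HEK293 as HEK239, while their other labels give HEK293. Whether replicates were grown apart is not in the labels, so each p-value reflects only array-to-array spread, which may be technical, and the number of arrays limits the precision.

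In BJ-hTERT fibroblasts the 2 factors that passed the test for a change with doxycycline moved in opposite directions. SNAI2 fell at both times, and TWIST1 rose at 24 h. Each of these calls held in 9 of 10 alternative settings of the processing. Both 24 h calls also ended with 1 probe set left out, as given below. SNAI1, TWIST2, ZEB1 and ZEB2 did not pass the test at either time, and no member passed it in HEK293. A gene is called changed at an adjusted p under 0.05 from a limma fit over all tested genes with Benjamini-Hochberg adjustment. By that rule 2 of 6 members were called in BJ-hTERT at 24 h, where 8.85% of all tested genes were called, and 1 of 6 at 72 h, where 8.62% were called. In HEK293 0 of 6 were called at 24 h, where the background was 0.473%, and 0 of 6 at 72 h, where it was 1.21%. At an unadjusted p under 0.05 the same limma fit picked 2 members in BJ-hTERT at 24 h, where 21.2% of genes were picked, and 2 at 72 h, where 21.4% were. In HEK293 it picked 1 at 24 h, where 8.56% were picked, and 0 at 72 h, where 11.6% were.

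**Figure D1:**
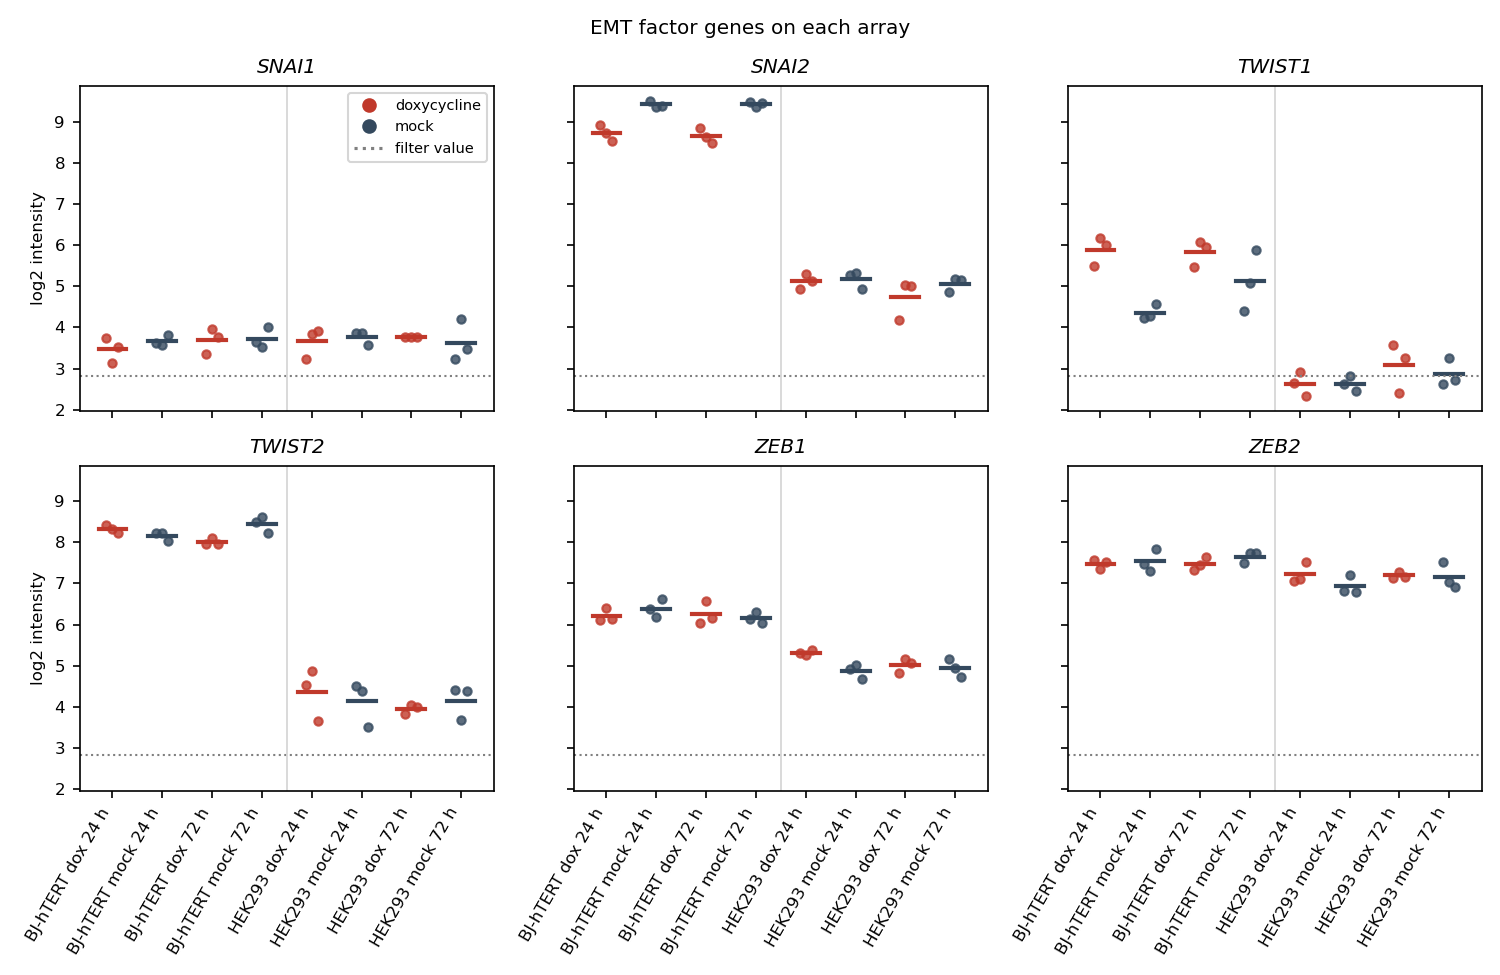
Mean log2 intensity of each EMT factor gene (vertical axis) on each of the 24 arrays, by group. Points are arrays, short lines are group means of 3 arrays, and the dotted line is the filter value of 2.83. In BJ-hTERT every doxycycline array of SNAI2 lies below every mock array at both times, and SNAI2 and TWIST2 lie higher in BJ-hTERT than in HEK293.

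SNAI2, also called Slug, is a zinc-finger repressor with a role in neural crest migration and wound repair. At 24 h it read 8.92, 8.72 and 8.53 log2 on the BJ-hTERT doxycycline arrays, and 9.50, 9.36 and 9.38 on the mock arrays. At 72 h it read 8.85, 8.62 and 8.49 on the doxycycline arrays, and 9.48, 9.36 and 9.44 on the mock arrays. All 3 doxycycline arrays lay below all 3 mock arrays at each time, a separation seen for 25.8% of all tested genes at 24 h and 25.1% at 72 h. The change was -0.69 log2 with a standard error (SE) of 0.18 at 24 h (limma adjusted p = 0.020), and -0.78 with the same SE at 72 h (adjusted p = 0.0093). The difference between these changes, 72 h minus 24 h, was not called. In bulk RNA, fewer cells with the transcript and less transcript per cell cannot be told apart.

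The fall of SNAI2 was spread over its probe sets. All 5 probe sets lay lower with doxycycline at both times, with changes of -1.01 to -0.06 at 24 h and of -0.93 to -0.49 at 72 h. None was called by itself among all probe sets, of which 0.764% were called at 24 h and 0.418% at 72 h, while 4 of 5 had an unadjusted limma p under 0.05 at 24 h and 3 of 5 at 72 h. The smallest change at each time came from the fifth probe set, which was dim, with 4.01 log2 in doxycycline cells and 4.07 in mock cells at 24 h. With each probe set left out in turn, a check chosen after seeing the data, the change was -0.85 to -0.61 at 24 h and -0.85 to -0.74 at 72 h. The call held in 4 of 5 cases at 24 h, with an adjusted p of 0.09 in limma without the first probe set, and in 5 of 5 at 72 h. The 24 h call also ended without 1 of 3 single arrays, at adjusted p 0.054 without doxycycline replicate 2, 0.098 without doxycycline replicate 3 and 0.075 without mock replicate 1. With the median of the probe sets in place of their mean, the adjusted limma p was 0.13 at 24 h and 0.14 at 72 h.

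In HEK293 SNAI2 read 4.94, 5.29 and 5.13 log2 on the doxycycline arrays at 24 h, and 5.27, 5.32 and 4.92 on the mock arrays. These ranges overlapped, and the change was -0.05 with an SE of 0.18 (limma adjusted p = 0.97). At 72 h the doxycycline arrays read 4.18, 5.02 and 5.00, and the mock arrays 4.85, 5.17 and 5.15. The change of -0.32 at 72 h did not pass the test (limma adjusted p = 0.53), and its 95% interval of -0.71 to 0.06 includes 0. Without doxycycline replicate 1, which held the 4.18, the change was -0.046. The difference in the doxycycline effect between the lines, BJ-hTERT minus HEK293, was -0.64 with an SE of 0.26 at 24 h and did not pass the test either (limma adjusted p = 0.19).

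TWIST1 is a bHLH factor of mesoderm and cranial neural crest that is known for driving EMT in carcinoma cells. At 24 h in BJ-hTERT it read 5.49, 6.18 and 5.99 log2 on the doxycycline arrays, and 4.23, 4.28 and 4.56 on the mock arrays. Every doxycycline array was above every mock array, in a comparison where 25.8% of all tested genes were separated in either direction. The means were 5.89 ± 0.36 with doxycycline and 4.36 ± 0.18 with mock (SD, n = 3 each), a change of 1.53 log2 with an SE of 0.32, or 2.89-fold (limma adjusted p = 0.0029).

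At 72 h TWIST1 read 5.46, 6.06 and 5.95 log2 on the doxycycline arrays, and 4.40, 5.07 and 5.89 on the mock arrays. The doxycycline arrays were as high as at 24 h, but 1 mock array lay within their range. The change was 0.71 with an SE of 0.32 and was not called (limma adjusted p = 0.20). Without mock replicate 3, which held the 5.89, it was 1.09 and was called (limma adjusted p = 0.035). The mean of the mock arrays was 0.76 log2 higher at 72 h than at 24 h, a difference that did not pass the test (limma adjusted p = 0.26). It was 0.38 without that mock replicate 3 and 0.47 with the median of the probe sets. No member was called between the mock times, where 1.85% of genes were called in BJ-hTERT and 0.369% in HEK293. The effect at 72 h minus that at 24 h was not called for any member in either line, where 0.00577% of genes were called in BJ-hTERT and 0.0173% in HEK293.

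The rise of TWIST1 was uneven over its 5 probe sets. At 24 h all 5 were higher with doxycycline, with changes of 1.32, 3.30, 1.12, 1.34 and 0.58 log2. Only the second was called by itself, reading 5.39 log2 with doxycycline and 2.09 with mock (limma adjusted p = 0.043 over all probe sets). With that probe set left out the gene's change was 1.09 (limma adjusted p = 0.053), and with each left out in turn it was 1.09 to 1.77, called in 4 of 5 cases. At 72 h 4 of 5 probe sets were higher with doxycycline, from -0.21 for the fifth to 2.25 for the second, and none was called.

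**Figure D2:**
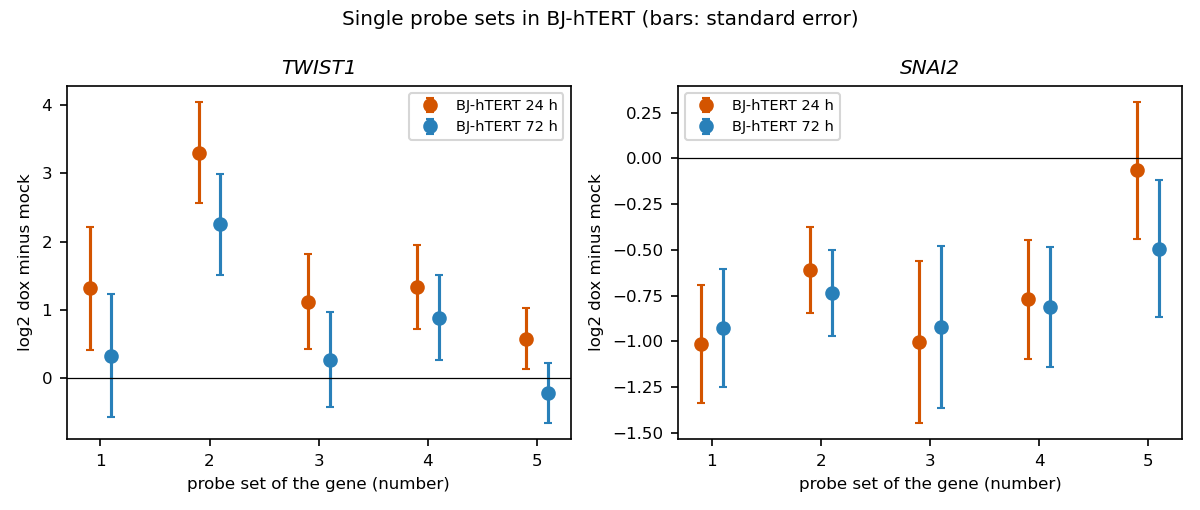
Change in log2 intensity (vertical axis, doxycycline minus mock) of each single probe set of TWIST1 and SNAI2 in BJ-hTERT at 24 and 72 h. Points are limma estimates and bars are standard errors. The second TWIST1 probe set stands highest at both times, and all 5 SNAI2 probe sets lie below 0 at both times.

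In HEK293 TWIST1 was dim, with group means of 2.63 to 3.08 log2 around the filter value of 2.83. Single arrays read 2.65, 2.92 and 2.33 with doxycycline at 24 h, and 2.63, 2.82 and 2.45 with mock. At 72 h they read 3.56, 2.42 and 3.25 with doxycycline, and 2.62, 3.27 and 2.72 with mock. The groups overlapped at both times, with changes of 0.01 and 0.21 (limma adjusted p = 1 and 0.87). The effect in BJ-hTERT minus that in HEK293 was 1.53 with an SE of 0.45 at 24 h and lay just outside the threshold (limma adjusted p = 0.055). At 24 h 0 of 6 members and at 72 h 0 of 6 were called in that difference between lines, where 4.74% and 5.27% of all genes were called, while the limma fit gave an unadjusted p under 0.05 for 3 members at 24 h and 0 at 72 h, and for 17.6% and 19.1% of all genes.

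TWIST2, a close paralog of TWIST1 also known as DERMO1 for its expression in dermis, was measured by 2 probe sets. At 24 h in BJ-hTERT it read 8.43, 8.32 and 8.23 log2 on the doxycycline arrays, and 8.22, 8.22 and 8.03 on the mock arrays. At 72 h it read 7.97, 8.10 and 7.97 on the doxycycline arrays, and 8.48, 8.60 and 8.23 on the mock arrays. The doxycycline arrays thus lay above the mock arrays at 24 h and below them at 72 h. Such separation in either direction was seen for 25.8% and 25.1% of all tested genes. Neither change was called, at 0.17 with an SE of 0.26 at 24 h (limma adjusted p = 0.79) and -0.43 at 72 h (adjusted p = 0.38). In HEK293 TWIST2 ranged over 3.67 to 4.87 log2 on the doxycycline arrays and 3.51 to 4.51 on the mock arrays, with changes of 0.22 and -0.19 at 24 and 72 h, neither called.

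ZEB1 and ZEB2 are large repressors with zinc-finger clusters at both ends, and ZEB1 represses the miR-200 microRNA genes while miR-200 microRNAs bind ZEB1 and ZEB2 messages, a double-negative loop. ZEB1, covered by 24 probe sets, read 5.31, 5.26 and 5.39 log2 on the HEK293 doxycycline arrays at 24 h, and 4.93, 5.01 and 4.67 on the mock arrays. All 3 doxycycline arrays were above all mock arrays, as for 14% of genes in that comparison in either direction. The change of 0.45 with an SE of 0.16 did not pass the test over all genes (limma adjusted p = 0.34), and with the median of the probe sets it was 0.027. Of its 24 probe sets, 17 lay above 0 and 7 below, from -1.61 to 2.91, and none was called, where 0.0326% of all probe sets were called. At 72 h none was called either, where 0.051% of all probe sets were, and no member's arrays were apart in HEK293, against 17.6% of genes. The ZEB1 change there was 0.07, with ranges of 4.83 to 5.16 on the doxycycline arrays and 4.72 to 5.17 on the mock arrays.

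In BJ-hTERT ZEB1 ranged over 6.11 to 6.40 log2 with doxycycline and 6.18 to 6.62 with mock at 24 h, and over 6.04 to 6.57 with doxycycline and 6.05 to 6.31 with mock at 72 h. Its changes were -0.18 and 0.09 with an SE of 0.16, and the groups overlapped at both times. The effect in BJ-hTERT minus that in HEK293 was -0.63 at 24 h (limma adjusted p = 0.13). With only the brighter probe sets that difference was -0.71 and was called (limma adjusted p = 0.046).

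ZEB2, covered by 16 probe sets, ranged over 7.34 to 7.65 log2 on the BJ-hTERT doxycycline arrays and 7.31 to 7.85 on the mock arrays. On the HEK293 arrays it ranged over 7.06 to 7.51 with doxycycline and 6.79 to 7.51 with mock. The 4 doxycycline changes were -0.06 and -0.17 in BJ-hTERT at 24 and 72 h, and 0.29 and 0.04 in HEK293, with an SE of 0.17. None was called. The antisense transcripts ZEB1-AS1 and ZEB2-AS1, which start beside the ZEB promoters, were not called either, with changes of -0.16 to 0.14 over the 4 comparisons.

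SNAI1, also called Snail, is a direct repressor of CDH1. It was dim in both lines, with single arrays at 3.14 to 3.96 log2 with doxycycline and 3.53 to 4.00 with mock in BJ-hTERT, and 3.24 to 3.92 with doxycycline and 3.23 to 4.19 with mock in HEK293. Doxycycline and mock arrays overlapped in each line at each time. Its changes were -0.20 and -0.03 in BJ-hTERT at 24 and 72 h, and -0.09 and 0.13 in HEK293, with an SE of 0.23. The 95% intervals reached from -0.68 to 0.27 for the first and from -0.34 to 0.61 for the last. Its relative SNAI3 was not called in any comparison.

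**Figure D3:**
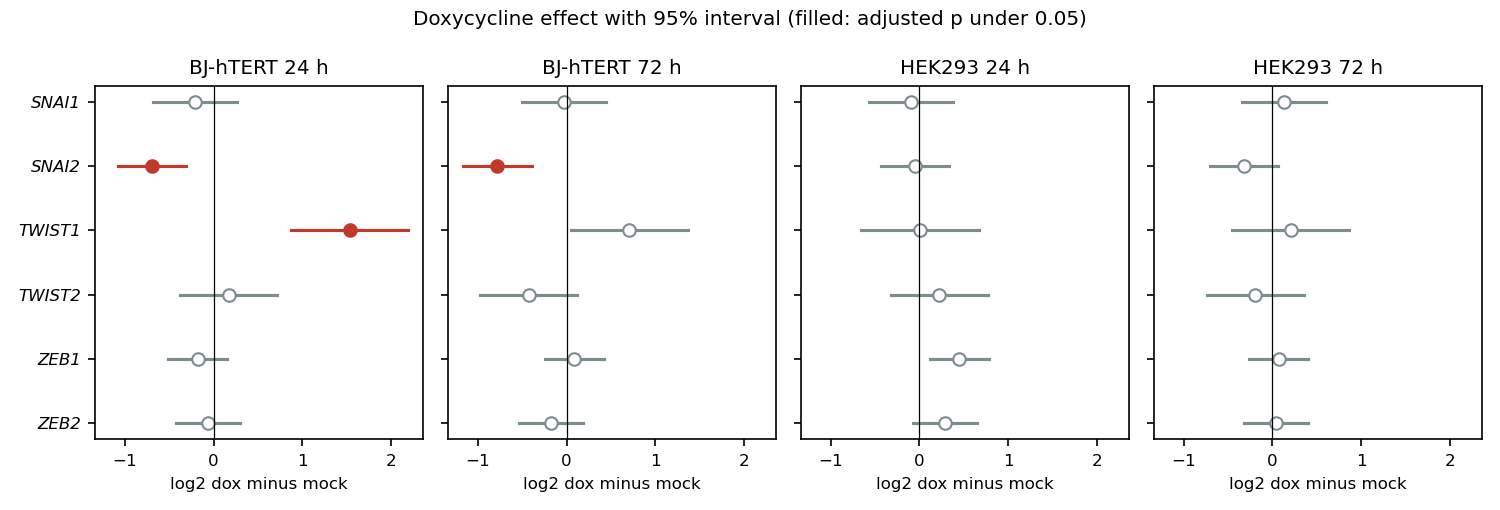
Doxycycline minus mock change in log2 intensity (horizontal axis) of each EMT factor gene in each line and time, from 1 limma fit. Points are estimates, lines are 95% intervals, and filled red points passed an adjusted p of 0.05. Only SNAI2 in BJ-hTERT at both times and TWIST1 at 24 h are filled.

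The lines differed in 5 of the 6 factors. In mock cells 5 of 6 members were higher in BJ-hTERT than in HEK293 at 24 h, where 50.7% of all genes were called and 21.8% were called higher, and 5 of 6 at 72 h, where 51.3% were called and 22.6% higher. The differences at 24 and 72 h were 4.25 and 4.37 log2 for SNAI2, and 4.02 and 4.28 for TWIST2. They were 1.73 and 2.25 for TWIST1, 1.52 and 1.22 for ZEB1, and 0.61 and 0.50 for ZEB2. The BJ-hTERT mock arrays read 9.36 to 9.50 log2 for SNAI2 and 8.03 to 8.60 for TWIST2, against 4.85 to 5.32 and 3.51 to 4.51 on the HEK293 mock arrays. SNAI2, TWIST2, TWIST1 and ZEB1 did not overlap between the lines on any array, with doxycycline or mock, and in mock cells alone the arrays of 55.7% of all genes did not overlap at 24 h and of 57.1% at 72 h. ZEB2 did, and its 72 h call ended in the fit of only the arrays compared (limma adjusted p = 0.057) and without any 1 of 4 mock arrays, at adjusted p 0.059 to 0.11. SNAI1 was not called, at -0.09 and 0.09 with an SE of 0.23 (limma adjusted p = 0.77 and 0.76).

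Single probe sets gave the same direction between the mock lines in every call. At 24 h 4 of 5 probe sets of SNAI2, 2 of 2 of TWIST2, 1 of 5 of TWIST1, 14 of 24 of ZEB1 and 7 of 16 of ZEB2 were called higher in BJ-hTERT and 0 lower, where 16.7% of all probe sets were called in either direction. At 72 h the counts were 4, 2, 3, 12 and 9, where 16.4% of all were called. None of the 5 probe sets of SNAI1 was called at either time.

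The order of the group levels followed the line for SNAI2, TWIST1, TWIST2, ZEB1 and ZEB2, with all 4 BJ-hTERT groups above all 4 HEK293 groups. Within BJ-hTERT the order for SNAI2 was mock at 72 and 24 h, at 9.43 and 9.42 log2, and then doxycycline at 24 and 72 h, at 8.72 and 8.65, where the neighbours of like treatment differed by less than their spread. For TWIST1 it was doxycycline at 24 and 72 h, at 5.89 and 5.83, then mock at 72 h, at 5.12, and at 24 h, at 4.36. For ZEB1, ZEB2, TWIST2 and SNAI1 no doxycycline group was called different from its mock group.

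Over the 12 BJ-hTERT arrays, SNAI2 and TWIST1 values had a Pearson r of -0.80, which these arrays share with the doxycycline and mock groups, and ZEB1 and ZEB2 had an r of 0.20. In HEK293, ZEB1 and ZEB2 had an r of 0.70 and SNAI2 and TWIST1 an r of -0.44. These are descriptions over arrays that share treatments and normalisation. The search for like genes covered 12619 tested protein-coding genes with at least 3 probe sets. It left out olfactory receptor, KIAA, open reading frame and similar symbols, and symbols ending in P and a number. Those most like SNAI2 over the BJ-hTERT arrays were FAM180A (r = 0.98), KCNH1, a potassium channel gene (0.97), and TICRR, a replication initiation gene (0.97). Those most like TWIST1 were PTGER2, a prostaglandin E receptor gene (0.94), HOXA11, a homeobox gene (0.93), and PPP1R3D, a glycogen-targeting phosphatase subunit gene (0.92). The highest values for the others were 0.93 for SNAI1 with KDM4D, 0.91 for TWIST2 with ALG9, 0.90 for ZEB1 with SETD4 and 0.90 for ZEB2 with COX6C. In HEK293, where no member was called with doxycycline, the highest values ran from 0.88 for TWIST1 with PRTFDC1 to 0.95 for SNAI1 with MRPS10. Each such value was picked as the highest among all genes compared, and a link between the genes was not tested.

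The epithelial junction genes include known targets of these repressors. Of 26 tested junction and keratin genes, 3 rose in BJ-hTERT at 24 h and 3 at 72 h, and 0 fell. This is 11.5% of the list at each time, near the 8.85% and 8.62% of all genes called, with a median change of 0.05 at 24 h and 0.09 at 72 h, against medians of 0.02 and -0.01 over all genes. The lists were chosen with results of these data known. OCLN, for the tight junction protein occludin, averaged 5.10 log2 with doxycycline and 3.41 with mock at 24 h, a rise of 1.69 with an SE of 0.19 (limma adjusted p = 3.8e-06). At 72 h it averaged 5.83 with doxycycline and 3.43 with mock, a rise of 2.39. JUP, for the desmosome and adherens junction protein plakoglobin, rose by 1.11 at 24 h. INADL, now named PATJ, a tight junction scaffold gene, rose by 0.93 at 24 h and 0.80 at 72 h. DSP, for desmoplakin, rose by 0.68 at 72 h in BJ-hTERT and by 0.47 in HEK293, the only gene of the list called there at 72 h, where 1.21% of all genes were called. In BJ-hTERT DSP averaged 7.92 and 7.71 log2 with doxycycline at 24 and 72 h, and 7.68 and 7.03 with mock, where the mock difference between the times was called (limma adjusted p = 0.0063).

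CDH1 itself was not called with doxycycline. In BJ-hTERT it averaged 2.94 log2 with doxycycline and 2.75 with mock at 24 h, near the filter value, and 2.83 with doxycycline and 2.81 with mock at 72 h. In HEK293 it averaged 5.22 with doxycycline and 4.94 with mock at 24 h, and 5.34 with doxycycline and 5.55 with mock at 72 h, so the change turned sign between the times. Its mock level in HEK293 was called higher at 72 h than at 24 h, by 0.61. Between the mock lines at 24 h it was lower in BJ-hTERT, with a difference of -2.19 log2, as was EPCAM, an epithelial adhesion gene, with -5.50. In that comparison 20 of 26 junction genes were lower in BJ-hTERT and 2 higher, while 27 of 28 mesenchymal genes were higher, where 50.7% of all genes were called and 21.8% were called higher. Among the higher mesenchymal genes were VIM, for the filament protein vimentin (2.20), and FN1, for fibronectin (3.42).

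The repressors bind the E-box letters CAGGTG, which read CACCTG on the other strand, so both strands were searched as 1 motif with no overlap between matches. RefSeq promoter windows of the 4 junction genes that rose in BJ-hTERT are shown because each holds this E-box at least 2 times. Where a gene had several windows, the one with the most matches was shown. OCLN and JUP have 2 windows each, of which 2 and 1 hold the motif, while PATJ and DSP have 1 each. Each window runs from 250 bases before to 50 bases after the gene's start on its own strand in GRCh38.p14, and the motif is in capitals. OCLN lies at chr5:69492540-69492839 on the plus strand, JUP at chr17:41785927-41786226 on the minus strand, PATJ at chr1:61742230-61742529 on the plus strand and DSP at chr6:7541421-7541720 on the plus strand.
OCLN: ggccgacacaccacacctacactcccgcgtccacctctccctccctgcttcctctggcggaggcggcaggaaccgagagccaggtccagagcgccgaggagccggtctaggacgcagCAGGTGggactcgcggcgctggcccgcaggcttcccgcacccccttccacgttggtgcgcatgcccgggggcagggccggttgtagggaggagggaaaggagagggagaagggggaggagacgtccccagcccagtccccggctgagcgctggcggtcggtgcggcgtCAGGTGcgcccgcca
JUP: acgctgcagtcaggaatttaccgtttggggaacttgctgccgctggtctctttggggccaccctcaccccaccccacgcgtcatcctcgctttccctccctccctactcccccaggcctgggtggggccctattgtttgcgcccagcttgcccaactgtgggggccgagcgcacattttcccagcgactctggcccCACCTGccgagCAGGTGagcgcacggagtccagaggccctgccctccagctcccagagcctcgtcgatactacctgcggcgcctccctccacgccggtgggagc
PATJ: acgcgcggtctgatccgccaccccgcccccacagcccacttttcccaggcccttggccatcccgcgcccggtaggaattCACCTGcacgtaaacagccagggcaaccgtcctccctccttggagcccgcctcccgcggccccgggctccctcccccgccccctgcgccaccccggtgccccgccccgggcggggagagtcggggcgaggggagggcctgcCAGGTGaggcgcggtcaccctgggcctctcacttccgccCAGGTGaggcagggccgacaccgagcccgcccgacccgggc
DSP: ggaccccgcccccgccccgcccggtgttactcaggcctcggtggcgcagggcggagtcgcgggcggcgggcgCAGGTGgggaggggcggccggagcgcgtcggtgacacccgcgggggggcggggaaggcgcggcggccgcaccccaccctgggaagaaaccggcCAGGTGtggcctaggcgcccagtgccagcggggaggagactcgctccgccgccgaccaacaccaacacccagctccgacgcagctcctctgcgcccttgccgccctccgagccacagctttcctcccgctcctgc
Of all 35116 windows, 20.6% hold the motif, and 24.1% of the 27305 genes have it in at least 1 window. On the junction list 13 of 18 genes with a window hold it, which is 72.2%, including 4 of 4 that rose and 9 of the other 14. The list includes known targets of the repressors, so this share is not an independent observation. ZEB1 itself has it in 2 of 7 windows, and the single windows of ZEB2 and TWIST2 do not hold these letters. SNAI1, SNAI2, TWIST1, CDH1 and EPCAM have no window among these sequences and were not searched. A match is a description of the sequence, and binding at these windows was not measured here.

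The microRNAs of the miR-200 family fall into groups by the seed, bases 2 to 8, which is in capitals below and pairs with ZEB messages. They are shown because they are the known counterparts of ZEB1 and ZEB2. Sequences are from RefSeq with GRCh38.p14.
hsa-miR-200b-3p: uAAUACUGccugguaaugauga
hsa-miR-200c-3p: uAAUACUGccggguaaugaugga
hsa-miR-429: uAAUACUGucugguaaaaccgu
hsa-miR-200a-3p: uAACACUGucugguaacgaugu
hsa-miR-141-3p: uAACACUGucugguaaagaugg
The first 3 share the seed AAUACUG and the other 2 the seed AACACUG. Each of the 5 host genes has 1 probe set with its symbol alone, and none passed the filter on low values. Array values ran over 1.05 to 1.96 log2 for MIR200B, 0.84 to 2.00 for MIR200C, 1.13 to 1.64 for MIR429, 1.56 to 2.60 for MIR200A and 1.27 to 1.97 for MIR141, over all 24 arrays. These probe sets read precursor transcripts, so mature microRNA levels were not measured here.

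Mesenchymal genes did not move one way. Of 28 tested, 1 rose and 1 fell in BJ-hTERT at 24 h, and 3 rose and 7 fell at 72 h, which is 7.14% and 35.7% of the list called where 8.85% and 8.62% of all genes were. LOX, for a collagen cross-linking oxidase, rose by 0.66 and 0.79 at 24 and 72 h. CDH2, for N-cadherin, rose by 0.51 at 72 h. TNC, for the matrix protein tenascin C, fell by 0.54 and 1.07 on the log2 scale at 24 and 72 h. COL3A1, a fibrillar collagen gene, fell by 0.65 at 72 h. It averaged 7.43 and 8.09 log2 with doxycycline at 24 and 72 h, and 7.41 and 8.73 with mock. Between the mock times 7 of the 28 genes, or 25% of the list, were called higher at 72 h in BJ-hTERT and 0 lower, where 1.85% of all genes were called. The 10 fibroblast markers are all on this list, so their mean level is not a separate observation, and its part in the result was not tested. At 72 h it was 8.23 to 8.41 log2 on doxycycline arrays and 8.50 to 8.59 on mock arrays. At 24 h it was 7.96 to 8.04 on doxycycline arrays and 7.86 to 7.99 on mock arrays. VIM and FN1 were not called with doxycycline in either line. In HEK293 LOXL2, a lysyl oxidase-like gene whose product is known to stabilise Snail, rose by 0.96 at 72 h. It was the 1 gene called of the 28 there, or 3.57%, where 1.21% of all genes were called.

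**Figure D4:**
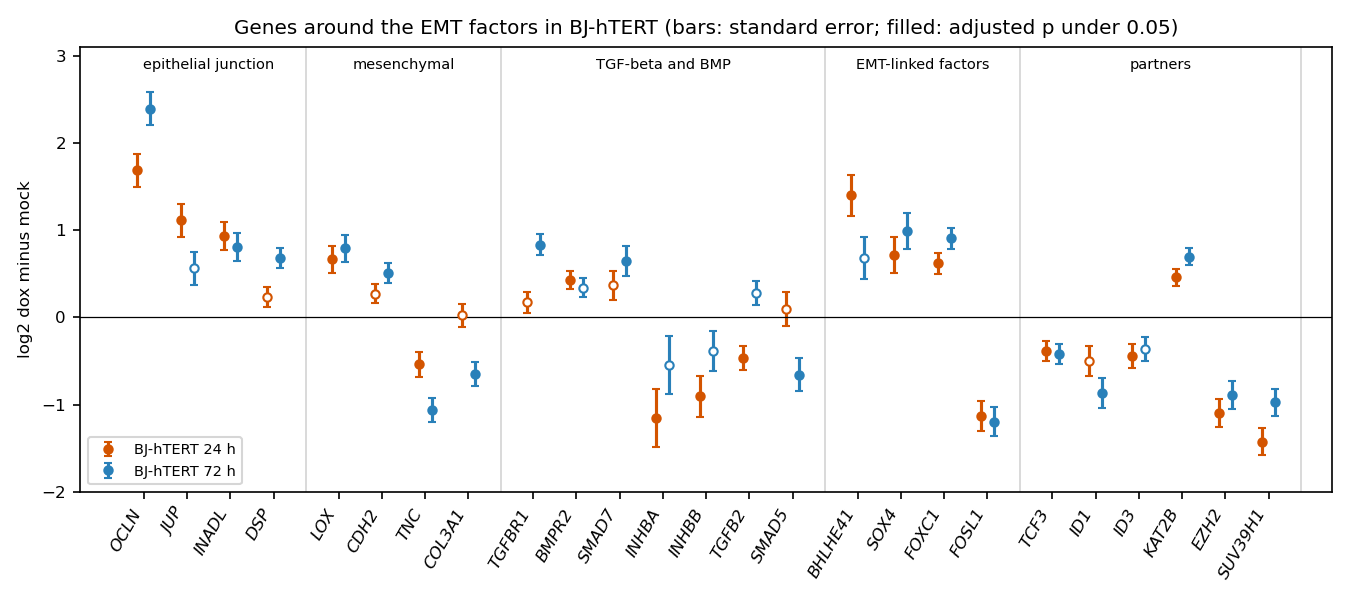
Change in log2 intensity (vertical axis, doxycycline minus mock) in BJ-hTERT at 24 and 72 h of junction, mesenchymal, TGF-beta and BMP, EMT-linked and partner genes named in the text. Points are limma estimates, bars are standard errors, and filled points passed an adjusted p of 0.05. OCLN has the highest point at both times, and the 2 FOSL1 points lie below -1.

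Signals that are known to switch on EMT factors were also measured. Among 29 genes of TGF-beta and BMP signalling, 1 rose and 3 fell in BJ-hTERT at 24 h, and 2 rose and 1 fell at 72 h. These are 13.8% and 10.3% of the list, where 8.85% and 8.62% of all genes were called. At 24 h BMPR2, for a type II BMP receptor, rose by 0.43. The ligand genes INHBA, INHBB and TGFB2 fell by 1.15, 0.90 and 0.47 on the log2 scale. At 72 h TGFBR1, for the type I TGF-beta receptor, rose by 0.83 and SMAD7, for an inhibitory SMAD, by 0.64, while SMAD5, for a BMP-responsive SMAD, fell by 0.66. In HEK293 1 of 29 was called at each time, 3.45% of the list where 0.473% and 1.21% of all genes were called, namely BMP6, a BMP ligand gene, which rose by 1.49 and 1.60.

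Among 28 tested Wnt, Notch, hypoxia and growth factor genes, 3 rose and 3 fell in BJ-hTERT at 24 h, and 2 rose and 2 fell at 72 h. These are 21.4% and 14.3% of the list, against 8.85% and 8.62% of all genes. JAG1, for a Notch ligand, rose by 0.94 and 0.95 at 24 and 72 h. NOTCH1 fell by 0.70 at 24 h, and NOTCH2 rose by 0.50 at 72 h. TCF7L2 rose by 0.53 and LEF1, also a Wnt effector gene, fell by 0.65 at 24 h. GLI1 and GLI2, for Hedgehog effectors, fell by 0.80 and 0.56 at 72 h. In mock BJ-hTERT cells GLI1 was called higher at 72 h than at 24 h, by 0.77. In HEK293 1 of the 28 was called at 24 h and 3 at 72 h, or 3.57% and 10.7%, where 0.473% and 1.21% of all genes were called. There EPAS1, for hypoxia factor HIF-2 alpha, rose by 1.17 and 0.88 at 24 and 72 h, and PDGFB and EGFR rose by 0.96 and 0.66 at 72 h.

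Partners that TWIST and Snail proteins work with were also measured. Of 7 genes for E proteins and ID inhibitors, which bind bHLH factors, 0 rose and 2 fell in BJ-hTERT at each time, 28.6% of this short list where 8.85% and 8.62% of all genes were called. TCF3, for the E protein E2A, fell by 0.39 and 0.42 at 24 and 72 h, ID3 fell by 0.45 at 24 h and ID1 fell by 0.87 at 72 h. In HEK293 ID3 was the 1 gene called of the 7, at 72 h, where it fell by 0.76 (limma adjusted p = 0.0041) and 1.21% of all genes were called. Of 23 corepressor and chromatin genes, 1 rose and 3 fell in BJ-hTERT at 24 h, and 1 rose and 2 fell at 72 h, which is 17.4% and 13% of the list against 8.85% and 8.62% of all genes. The methyltransferase genes SUV39H1 and EZH2 fell by 1.43 and 1.10 at 24 h and by 0.97 and 0.89 at 72 h. HDAC2, for a deacetylase, fell by 0.63 at 24 h, and KAT2B, for an acetyltransferase, rose by 0.46 and 0.69 at 24 and 72 h.

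Other transcription factors that are linked to EMT were a further list. Of 22 tested, 3 rose and 2 fell in BJ-hTERT at 24 h, and 2 rose and 2 fell at 72 h. These are 22.7% and 18.2% of the list, where 8.85% and 8.62% of all genes were called. In HEK293 0 of the 22 rose or fell at 24 h, where 0.473% of all genes were called. At 72 h 2 rose there, or 9.09%, where 1.21% of all genes were called. In BJ-hTERT SOX4 rose by 0.72 and 0.99 at 24 and 72 h, and FOXC1, a forkhead gene, rose by 0.62 and 0.91. BHLHE41, for a bHLH repressor, rose by 1.40 at 24 h in BJ-hTERT and by 1.24 at 72 h in HEK293. FOSL1, for the AP-1 subunit Fra-1, fell by 1.13 and 1.20 in BJ-hTERT at 24 and 72 h, and rose by 1.22 in HEK293 at 72 h. In HEK293 it averaged 4.48 and 4.55 log2 with doxycycline at 24 and 72 h, and 4.13 and 3.33 with mock, where the mock difference between the times was itself called (limma adjusted p = 0.043). Among the epithelial regulators KLF4 fell by 0.77 and GRHL1 rose by 0.67 in BJ-hTERT at 72 h, the 2 called of 10 tested, or 20% of the list against 8.62% of all genes. KLF4 was also called higher in mock cells at 72 h than at 24 h, by 0.64.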

How the data were processed

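RNA of 24 samples of cultured cell lines was hybridised to Affymetrix Human Gene 2.1 ST arrays. The values the authors deposited are on the log2 scale per probe set, made with GCOS, RMA and Affymetrix Expression Console per the submitters' processing notes, with no version given. Neither the genome build nor the set of arrays normalised together is given in the sources used here. The deposited values cover 352859 probe sets, of which 257971 carry 1 gene symbol in the platform annotation. Their log2 values were averaged for each gene. The filter kept 17329 of 25029 genes, those with a mean of at least 2.83 log2 in 1 or more groups, the 40th percentile over groups and genes.

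All comparisons came from 1 limma fit (limma 3.58.1, statmod 1.5.0, R 4.3.3) of 8 group means to 24 arrays with eBayes, with Benjamini-Hochberg adjustment over the genes tested within each of 12 comparisons. Single probe sets were fitted the same way over all 352859. The fit was also run on simulated data with independent noise per gene, for the BJ-hTERT 24 h comparison only. Its outcome is not given here, and it does not cover the other comparisons or shared cultures. Old symbols were updated through RefSeq gene names, with 23358 current, 1621 updated and 50 unmatched. Figures were drawn with matplotlib 3.10.9.

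The genes named are the 6 members, the members of each gene list with the 4 smallest p in a doxycycline comparison that were also called, and the 3 genes most like each member. CDH1, EPCAM, VIM, FN1, SNAI3, ZEB1-AS1, ZEB2-AS1, the miR-200 genes and NUTM2B were named after their values were seen. The members and lists were chosen with earlier results of these data known. Alternatives to the summary, filter, normalisation and fit were run, and each array was left out in turn.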

Additional observations from a re-analysis of the deposited data

Results flagged for a closer look

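TWIST2 in BJ-hTERT lay above mock on all 3 doxycycline arrays at 24 h, by a mean of 0.17 log2, and below mock on all 3 at 72 h, by a mean of -0.43. In these comparisons the arrays of 25.8% and 25.1% of all genes did not overlap. At 24 h the nearest arrays were 8.23 with doxycycline and 8.22 with mock. The effect at 72 h minus the effect at 24 h was -0.60 with an SE of 0.37, which did not pass the test (limma adjusted p = 0.68). Both TWIST2 probe sets showed the change of sign. Groups of 3 arrays were not tested for outlying arrays.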

How the results depend on the processing

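Over 10 alternative settings the fall of SNAI2 in BJ-hTERT was called in 9 at each time, with changes of -0.82 to -0.68 at 24 h and -0.81 to -0.77 at 72 h, and the rise of TWIST1 at 24 h in 9, at 1.09 to 1.53. The count of members called in BJ-hTERT at 24 h, 2, became 1 with only the brighter probe sets, where TWIST1 had an adjusted p of 0.055 in limma, and 1 with the median of the probe sets. It was 1 to 2 with each array left out in turn, and was 1 without doxycycline replicate 2, doxycycline replicate 3 or mock replicate 1. At 72 h the count of 1 became 0 with the median of the probe sets, and was 1 to 2 with each array left out, 2 without mock replicate 3. For the 24 h difference between lines the count of 0 became 1 with only the brighter probe sets (ZEB1), and 1 for TWIST1 in the trended robust limma fit (adjusted p = 0.036) and in the fit of only the arrays compared (adjusted p = 0.016). It was 0 to 1 with each array left out, and 1 without BJ-hTERT doxycycline replicate 1. Over all tested genes, deviations of same-number arrays correlated at -0.02 to 0.09 in BJ-hTERT and -0.05 to 0.04 in HEK293, with 0 of 18 pairs over 0.1 in each. These values do not show whether replicate number matters for single genes. For SNAI2 and TWIST1 in BJ-hTERT the order of arrays by replicate number was the same at 24 and 72 h, within doxycycline and within mock. With the replicate number as a block, the count for the 24 h difference between lines became 1 (TWIST1, limma adjusted p = 0.039). In BJ-hTERT SNAI2 kept limma adjusted p 0.010 and 0.0048 at 24 and 72 h, and TWIST1 0.0020 at 24 h. No other count of calls changed. Some changes that were not called turned sign. With the median of the probe sets HEK293 values became 0.091 for SNAI2 and -0.60 for TWIST1 at 24 h, and 0.0042 for SNAI2 and -0.044 for TWIST1 at 72 h, and SNAI1 in BJ-hTERT at 72 h became 0.083. With only the brighter probe sets SNAI1 became 0.0023 in HEK293 at 24 h and 0.10 between lines at 24 h, where equal array medians gave 0.010 and quantile normalisation 0.053. With equal array medians ZEB2 in HEK293 at 72 h became -0.017. With each array left out, ranges that crossed 0 in HEK293 at 24 h were -0.22 to 0.12 for SNAI1, -0.18 to 0.037 for SNAI2, -0.14 to 0.16 for TWIST1 and -0.089 to 0.57 for TWIST2. At 72 h they were -0.065 to 0.42 for SNAI1, -0.038 to 0.54 for TWIST1, -0.045 to 0.18 for ZEB1 and -0.080 to 0.22 for ZEB2. In BJ-hTERT they were -0.18 to 0.088 for ZEB2 at 24 h, and -0.16 to 0.14 for SNAI1 and -0.070 to 0.20 for ZEB1 at 72 h. Between lines at 72 h the range for SNAI1 was -0.11 to 0.38. The causes were not tested. Of the group means, those of TWIST1 in HEK293 at 24 h lay below the filter value, and those of SNAI1 were 3.46 to 3.76 log2.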

Other observations

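Genes whose products act on the EMT factor proteins were a further group. Of 22 tested kinase, ubiquitin ligase and protease genes, 1 rose in BJ-hTERT at 24 h and 3 at 72 h, and 0 fell. These are 4.55% and 13.6% of the list, where 8.85% and 8.62% of all genes were called. BTRC, for a ubiquitin ligase subunit that targets Snail, rose by 0.50 and 0.60 at 24 and 72 h. ATM, for a damage response kinase, rose by 0.58 and LATS2, for a Hippo pathway kinase, by 0.40 at 72 h. Protein levels of the factors were not measured here, so whether these transcripts move with them was not tested.

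Neural crest genes and relatives of the members were 2 more lists. RUNX2, for a bone transcription factor whose activity TWIST proteins restrain, fell by 0.86 in BJ-hTERT at 72 h, the 1 called of 16, or 6.25% where 8.62% of all genes were called. PTF1A, a TWIST-like bHLH gene, rose by 1.39 in HEK293 at 72 h, the 1 called of 7 relatives, or 14.3% where 1.21% of all genes were called, with 4.58 log2 with doxycycline and 3.18 with mock.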
